A study of Mus musculus with 3 samples.

Results

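Mitotic cells were taken here as the 10% of cells in each library with the highest share of transcripts from 8 genes of late G2 phase and mitosis, and they numbered 734 of 7322 called cells. The 8 genes were Ccnb1, Cdc20, Plk1, Aurka, Cenpe, Cenpf, Ube2c and Hmmr. They were compared with the 50% of cells in the same library with the lowest share, 3662 cells in all, and the cells between these bounds were left out. The sets were thus chosen by measured values, so nothing below is a test of the choice.

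The cells were E14 mouse embryonic stem cells of 129/Ola background, grown on gelatin in serum with leukemia inhibitory factor. One culture received 10 uM tubercidin, an adenosine analogue, for 3 h, another received it for 6 h, and the control received the solvent DMSO for 6 h. RNA was profiled by droplet single-cell sequencing of transcript 3′ ends, with unique molecular identifiers (UMIs) that count captured RNA molecules. Each condition is 1 library, so no spread between cultures could be measured, and the intervals given are 95% intervals of counting error only. All values are UMIs summed over the cells of a set and scaled to the set's total (CPM), and a log2 ratio is that of CPM + 1.

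A cell that approaches division accumulates cyclin B, which activates the kinase Cdk1, and with it the motors, kinetochore proteins and checkpoint proteins that build the spindle and hold the chromosomes. Cdc20 then directs the anaphase-promoting complex, whose ubiquitin-conjugating enzyme is Ube2c, to destroy cyclin B and let the chromosomes part. Messages of the replication-dependent histones belong to S phase and are degraded at its end. Embryonic stem cells cycle fast with a short G1 phase, so many cells of such a culture are in S, G2 or M.

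The mitotic set held 204 of 2031 control cells, 237 of 2365 cells after 3 h and 293 of 2926 cells after 6 h. The remaining cells numbered 1016, 1183 and 1463. UMIs in the files came to 115656427 (control), 35374540 (3 h) and 29353325 (6 h). 1 cell barcode was shared between each pair of libraries. Mitochondrially encoded genes took 2.93% of UMIs in the mitotic cells and 2.94% in the remaining cells of the control, 3.33% and 3.51% after 3 h, and 2.90% and 2.92% after 6 h. Genes of other cell types were low in all 6 summed sets, at 0 to 0.0693 CPM for 7 genes of the 2-cell-like state, 6.85 to 14.0 CPM for 7 of primitive endoderm and 1.01 to 2.37 CPM for 6 of fibroblasts. The 6 trophoblast genes came to 39.6 to 72.8 CPM, with their highest value in the mitotic cells after 6 h. The pluripotency genes Pou5f1, Sox2 and Nanog were present in both sets of each library.

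The marker share had no gap at the bound. In the control the lowest mitotic cell had 2443.5 CPM of the 8 markers and the highest cell below the bound 2443.2 CPM. The corresponding pairs were 2059 and 2058 CPM after 3 h, and 1809 and 1807 CPM after 6 h. Cells within 10% of the bound numbered 226, 205 and 257, of which 94, 97 and 115 were inside. The mitotic set is therefore a range of a continuous score and not a separate type, and G2 cells that have yet to divide cannot be told from dividing cells in it.

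The median marker share was 2716 CPM in mitotic and 1014 CPM in remaining control cells, 2328 and 770 CPM after 3 h, and 2068 and 694 CPM after 6 h. It rested on a median of 178.5 marker UMIs in a mitotic control cell, 27 after 3 h and 15 after 6 h. In the remaining cells the medians were 45, 9 and 5 UMIs. The treated cells were thus sorted on far fewer molecules than the control cells.

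To read markers that had no part in the choice, cells were sorted on 4 of the 8 markers and the other 4 were measured, both ways round. The 8 markers then had a median log2 ratio of mitotic to remaining cells of 1.20 in the control (0.67 to 1.68), 1.01 after 3 h (0.58 to 1.41) and 0.62 after 6 h (0.35 to 0.96). When the cells were first thinned to 4000 UMIs each for the sorting, the medians were 0.73, 0.72 and 0.52. Markers left out of the choice were thus higher in the chosen cells of all 3 libraries. The greater contrast of the control over 3 h was no longer present at equal sorting depth, and the 6 h value stayed lowest. With the same thinning, the full choice shared 112 of 204 control cells (54.9%) with the set above, and 133 of 225 (59.1%) and 156 of 265 (58.9%) after 3 h and 6 h. These shared cells were 54.9%, 56.1% and 53.2% of the sets above.

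A bound fixed on the control gave fewer high-marker cells after tubercidin. At 4000 UMIs per cell, 243 of 2031 control cells (11.96%, exact binomial interval 10.6 to 13.5%) had at least 11 marker UMIs. After 3 h this was so for 94 of 2243 cells (4.19%, 3.40 to 5.10%), and after 6 h for 55 of 2642 (2.08%, 1.57 to 2.70%). The mean number of marker UMIs was 6.15, 4.80 and 4.26. The 122 and 284 treated cells with under 4000 UMIs were left out. A lower count per 4000 UMIs can come from fewer cells late in the cycle or from less of these messages per cell, and the counts cannot tell these apart.

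**Figure D1:**
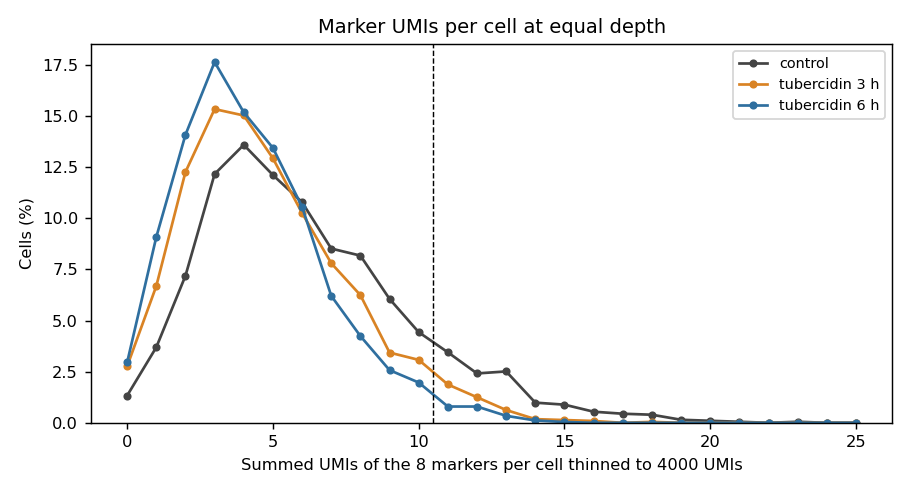
Percent of cells (vertical axis) by their number of UMIs of the 8 markers after thinning each cell to 4000 UMIs (horizontal axis), 1 line per library, with a dashed line at 11 UMIs. The control line lies above both treated lines to the right of the dashed line, where it holds 11.96% of cells against 4.19% after 3 h and 2.08% after 6 h.

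Among the markers the levels did not move alike with tubercidin. Cenpf, a kinetochore protein, stood at 647 CPM in mitotic control cells, 402 CPM after 3 h and 403 CPM after 6 h, against 159, 89.6 and 98.9 CPM in remaining cells. Ube2c was at 628 CPM in mitotic control cells, 585 CPM after 3 h and 384 CPM after 6 h. Ccnb1, which encodes cyclin B1, was at 351, 355 and 339 CPM. Plk1 and Aurka, kinases of spindle assembly, were at 194 and 193 CPM in mitotic control cells, 174 and 159 CPM after 3 h, and 157 and 178 CPM after 6 h. Cenpe, a kinetochore motor, was at 258, 158 and 173 CPM in mitotic cells, and Hmmr, a microtubule-binding protein, at 326, 235 and 307 CPM. Cdc20 was the only marker higher after 3 h in both sets, at 232 CPM in mitotic control cells and 331 CPM after 3 h, and at 132 and 141 CPM in the remaining cells. These levels are a description of the genes that chose the cells.

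The first comparison asked which other transcripts set mitotic cells apart within each library. Some genes of the mitotic machinery were at least 1.5-fold higher in mitotic cells of all 3 libraries. These were 10 of 29 tested genes of the spindle and cytokinesis, 4 of 27 of kinetochores and the checkpoint, 5 of 22 of mitotic chromosomes and the nucleus, and 5 of 19 of cyclins and the anaphase machinery. Of 15 tested replication-dependent histone genes, 11 were at least 1.5-fold lower in all 3. Genes were compared when their CPM, averaged over the 6 summed sets, was 20 or more, markers left out. Of these 5847 genes, 103 were at least 1.5-fold higher in mitotic control cells (1.76% of genes tested) and 18 were at least 1.5-fold lower (0.308%). After 3 h 189 genes (3.23%) were higher and 54 (0.924%) lower, and after 6 h 120 (2.05%) were higher and 23 (0.393%) lower. In all 3 libraries at once, 39 genes (0.667%) were higher and 12 (0.205%) were lower, and in at least 1 library 294 (5.03%) were higher and 67 (1.15%) lower. No gene past 1.5-fold in the control was past it the other way in a treated library.

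The contrast was partly shared between the libraries. Across the 5847 genes, the log2 ratios of the control and of 6 h had a Pearson correlation of 0.596 and a Spearman correlation of 0.503. The control and 3 h had 0.447 and 0.319, and 3 h and 6 h had 0.455 and 0.377. Genes are not independent replicates, the cells of all libraries were sorted by the same markers, and the values of low genes carry counting error. Of the 103 higher genes of the control, 56 were among the 189 of 3 h (54.4% of the first list and 29.6% of the second) and 49 among the 120 of 6 h (47.6% and 40.8%). Genes were compared by size only, and no gene-level test was made.

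The counts of higher and lower genes depended on the scaling. With median-of-ratios size factors they were 77 and 27 in the control, 111 and 86 after 3 h, and 59 and 44 after 6 h. In UMIs per cell without scaling they were 1619 and 16, 332 and 58, and 137 and 41, with median log2 ratios over all genes of 0.44, 0.07 and 0.01.

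Of the genes of the spindle and cytokinesis, all 29 listed were tested, and 22 were at least 1.5-fold higher in mitotic control cells, 11 after 3 h and 12 after 6 h. Their median log2 ratio was 0.79, 0.43 and 0.49, against 0.00, 0.03 and 0.05 for all genes tested. 27 of the 29 were above 0 in all 3 libraries (93.1%, against 27.2% of genes tested). The medians had the same sign under both other scalings, though in UMIs per cell the median of all genes was itself 0.44 in the control.

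Nusap1 (ENSMUSG00000027306), which bundles spindle microtubules, stood at 278 CPM in mitotic and 85.1 CPM in remaining control cells, at 221 and 71.0 CPM after 3 h, and at 171 and 84.1 CPM after 6 h. Its log2 ratios were 1.70 (1.64 to 1.77), 1.62 (1.49 to 1.78) and 1.01 (0.85 to 1.19). The 3 mitotic values lay above the 3 remaining values without overlap. Prc1 (ENSMUSG00000038943), which crosslinks the midzone microtubules of anaphase, was at 372 and 139 CPM in the control, 157 and 88.7 CPM after 3 h, and 185 and 103 CPM after 6 h. Aspm, a protein of the spindle poles, was at 136 and 49.1 CPM, 39.7 and 21.2 CPM, and 74.6 and 36.0 CPM. For Aspm the mitotic cells after 3 h were below the remaining cells of the control, although they were above the remaining cells of their own library. Arl6ip1, an endoplasmic reticulum membrane protein kept in this list, was at 661 and 257 CPM, 608 and 244 CPM, and 491 and 249.6 CPM. Ckap2l, a protein of the mitotic spindle, had log2 ratios of 1.14, 1.26 and 0.71.

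The kinesins differed among themselves. Kif20b was higher in mitotic cells of all 3 libraries, with log2 ratios of 0.79, 1.18 and 0.73, as were Kif23, with 1.24, 0.70 and 0.87, and Kif2c, with 0.82, 0.78 and 0.63. Kif11, the motor that pushes the spindle poles apart, had 0.82 in the control but 0.31 after 3 h and 0.43 after 6 h. Kif18b, a motor at the tips of astral microtubules, had 0.77 (0.65 to 0.95) in the control and -0.26 (-0.61 to 0.05) after 3 h. Its level in remaining cells was 24.5 CPM in the control, 36.9 CPM after 3 h and 69.8 CPM after 6 h.

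Of 27 kinetochore and checkpoint genes, 11 were at least 1.5-fold higher in mitotic control cells, 9 after 3 h and 4 after 6 h, with median log2 ratios of 0.54, 0.35 and 0.37. 23 were above 0 in all 3 libraries. Sgo2a (ENSMUSG00000026039), a shugoshin that guards centromeric cohesion, was at 141 and 58.5 CPM in the control, 65.0 and 21.6 CPM after 3 h, and 68.0 and 35.7 CPM after 6 h. Cenpa, the centromeric histone H3 variant, was at 166 and 76.0 CPM, 115 and 43.4 CPM, and 76.3 and 42.9 CPM. Its pattern was opposite to that of the replication-dependent histones described below. Incenp, the scaffold of the chromosomal passenger complex, was at 248 and 111 CPM, 212 and 104 CPM, and 264 and 164 CPM. Kntc1, a part of the complex that brings dynein to kinetochores, was at 85.3 and 79.3 CPM in the control and at 68.0 and 105 CPM after 3 h. It was the 1 gene of this list at least 1.5-fold lower in any mitotic set.

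Genes of mitotic chromosomes and the nucleus had median log2 ratios of 0.39, 0.42 and 0.27, with 8, 7 and 6 of 22 at least 1.5-fold higher. Top2a (ENSMUSG00000020914), the topoisomerase that untangles sister DNA, was at 1175 and 583 CPM in the control, 688 and 344 CPM after 3 h, and 772 and 480.0 CPM after 6 h. Mki67, which coats mitotic chromosomes, was at 226 and 108 CPM, 96.0 and 36.4 CPM, and 134 and 77.3 CPM. Smc4, a condensin subunit, had log2 ratios of 0.85, 1.40 and 0.66. Ncapg2, another condensin subunit, had -0.22, -0.15 and 0.14.

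Among 19 tested genes of cyclins, Cdk1 control and the anaphase-promoting complex, 7 were at least 1.5-fold higher in mitotic control cells, 7 after 3 h and 5 after 6 h, and the median log2 ratios were 0.40, 0.44 and 0.34. Cdk1 (ENSMUSG00000019942) was at 223 and 104 CPM in the control, 86.5 and 47.0 CPM after 3 h, and 73.7 and 37.6 CPM after 6 h. Fzr1, which directs the anaphase-promoting complex after Cdc20, was at 84.1 and 35.7 CPM, 121 and 63.2 CPM, and 109 and 71.3 CPM. Pttg1, the securin that holds separase inactive, had log2 ratios of 0.66, 0.87 and 0.68. Ccnb2 and Ccna2, which encode cyclins B2 and A2, had ratios of 0.40, 0.22 and 0.28, and of 0.39, 0.57 and 0.41. Neither reached 1.5-fold in any of the 3 libraries.

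Regulators of the mitotic gene program were mostly within 1.5-fold between the sets, as were most genes tested. The DREAM and MuvB complexes and the factors Mybl2 and Foxm1 are known to switch these genes. Of 13 tested regulators, none was at least 1.5-fold apart in the control or after 6 h, and E2f5 alone was higher after 3 h, with a log2 ratio of 0.62. Among all genes tested, 1.76% were that far higher and 0.308% lower in the control. The shares were 3.23% and 0.924% after 3 h, and 2.05% and 0.393% after 6 h. The counts among 13 regulators were thus near those of all genes. Mybl2 was at 255 and 290 CPM in the control, 345 and 370 CPM after 3 h, and 451 and 478 CPM after 6 h. Foxm1 was below the level tested, at 16.5 and 11.6 CPM, 15.8 and 12.2 CPM, and 14.4 and 11.96 CPM. The list's medians were -0.02, 0.05 and 0.06.

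**Figure D2:**
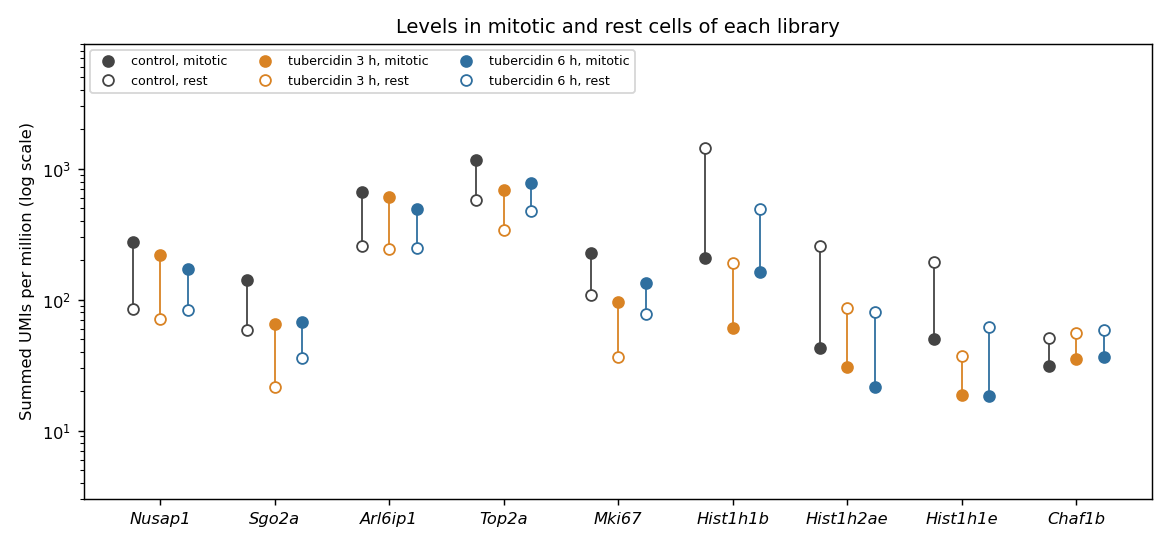
Summed level (CPM, log axis) of 9 genes in mitotic cells (filled points) and remaining cells (open points) of the 3 libraries. A vertical line joins the values of both sets in each library and is not a counting interval. Nusap1, Sgo2a, Arl6ip1, Top2a and Mki67 are higher in the mitotic cells of each library, and Hist1h1b, Hist1h2ae, Hist1h1e and Chaf1b are lower.

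The replication-dependent histone genes had the lowest median ratio of the lists tested in each library. Of 67 such genes in the files 15 passed the filter, and 13 of these were at least 1.5-fold lower in mitotic control cells, 11 after 3 h and 11 after 6 h. The median log2 ratios were -1.71, -0.96 and -1.19, negative under both other scalings as well. Summed over all 67 genes, the mitotic cells held 841 CPM and the remaining cells 3888 CPM in the control, 722 and 1182 CPM after 3 h, and 649 and 1536 CPM after 6 h. These genes are near-identical copies and their messages mostly lack the poly(A) tail that the assay captures, so single gene counts are uncertain.

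Hist1h1b (ENSMUSG00000058773), a linker histone gene, was at 208 CPM in mitotic and 1450.0 CPM in remaining control cells, at 60.6 and 190 CPM after 3 h, and at 162 and 497 CPM after 6 h. Its log2 ratios were -2.80 (-2.86 to -2.75), -1.63 (-1.87 to -1.43) and -1.61 (-1.77 to -1.47). Hist1h2ae, a histone H2A gene, was at 42.9 and 257 CPM, 30.3 and 86.6 CPM, and 21.4 and 80.7 CPM. The remaining cells of the treated libraries were thus nearer to the control's mitotic cells than to its remaining cells for both genes. Hist1h4d differed from them in that its highest level, 212 CPM, was in remaining cells after 6 h, against 156 CPM in the control. 11 histone genes were at least 1.5-fold lower in all 3 libraries, and the only other gene so was Chaf1b (ENSMUSG00000022945), a subunit of the chromatin assembly factor that loads new histones at replication forks. Chaf1b was at 31.0 and 50.7 CPM, 35.4 and 56.1 CPM, and 36.6 and 58.5 CPM, a log2 ratio between -0.69 and -0.65 in each library.

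Other genes of G1/S and DNA replication were less far apart. Of 37 tested, 35 were below 0 in the control, 22 after 3 h and 22 after 6 h, and 18 in all 3 libraries (48.6%, against 18.5% of genes tested). Among all genes tested, 50.9% were above 0 in the control, 55.7% after 3 h and 58.6% after 6 h. The replication list's median log2 ratios were -0.19, -0.03 and -0.04. In UMIs per cell without scaling the median was 0.25 in the control and 0.01 after 3 h, so the direction there depended on the scaling. Pcna, the sliding clamp, was at 147 and 216 CPM in the control, 110.1 and 123 CPM after 3 h, and 92.9 and 110.5 CPM after 6 h. Ung, which removes uracil from DNA, had -0.75 in the control and -0.13 and -0.20 in the treated libraries. Slbp, the protein that binds the stem-loop of histone messages, was at 168 and 231 CPM in the control, with the mitotic cells lower, and at 140 and 123 CPM and 119 and 110 CPM in the treated libraries, with the mitotic cells higher.

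**Figure D3:**
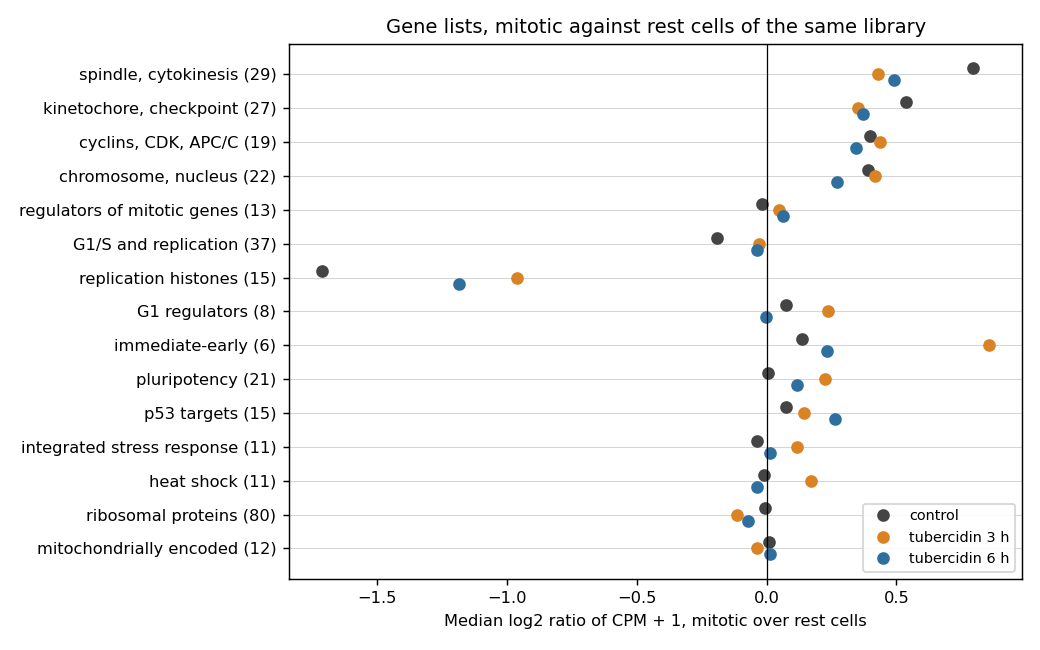
Median log2 ratio of mitotic to remaining cells (horizontal axis) for each gene list (rows), 1 point per library. The spindle list lies between 0.43 and 0.79 and the histone list between -1.71 and -0.96, while the immediate-early list stands at 0.86 after 3 h and at 0.13 and 0.23 in the control and after 6 h.

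Other higher genes were outside the lists. Of the 39 genes higher in all 3 libraries, 24 were in the 4 mitotic lists and 15 were not. Among the 15, Arhgap11a, Arhgap19, Knstrn, Nde1 and Tuba1c encode proteins with known roles in cytokinesis or at the spindle. Jpt1, a microtubule-associated protein, was at 287 and 123 CPM in the control, 298 and 135 CPM after 3 h, and 256 and 162 CPM after 6 h. Sfmbt2, a Polycomb-group gene, had log2 ratios of 1.03, 0.63 and 1.08. Malat1, a long noncoding RNA kept in the nucleus, was at 4672 and 2627 CPM, 5323 and 3038 CPM, and 3745 and 1966 CPM. Its log2 ratio was 0.83 (0.82 to 0.84), 0.81 (0.78 to 0.84) and 0.93 (0.89 to 0.97), the mitotic cells lying above the remaining cells of each library.

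The promoter sequences of genes that define and follow the mitotic set are shown because the known regulators of this program bind 2 short elements. The cell cycle homology region reads TTTGAA or TTTAAA, and the CCAAT box binds NF-Y. In each stretch capitals mark these letters on either strand, so TTCAAA and ATTGG are the reverse forms. Sequences and starts are those of RefSeq on GRCm38.p6, the same assembly as mm10, 5′ to 3′ on the gene's strand. Each covers the 120 bases before the annotated start. These genes were chosen after their letter matches were known.
Ccnb1 (chr13:100786487-100786606, minus strand): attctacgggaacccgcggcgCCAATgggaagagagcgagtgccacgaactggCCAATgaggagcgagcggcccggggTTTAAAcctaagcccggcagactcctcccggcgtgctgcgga
Cdc20 (chr4:118437344-118437463, minus strand): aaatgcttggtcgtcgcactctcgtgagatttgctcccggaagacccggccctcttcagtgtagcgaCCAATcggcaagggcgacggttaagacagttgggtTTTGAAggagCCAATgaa
Ube2c (chr2:164769809-164769928, plus strand): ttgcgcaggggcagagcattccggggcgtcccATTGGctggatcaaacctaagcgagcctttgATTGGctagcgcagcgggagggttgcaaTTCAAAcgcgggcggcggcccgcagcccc
Cdk1 (chr10:69352913-69353032, minus strand): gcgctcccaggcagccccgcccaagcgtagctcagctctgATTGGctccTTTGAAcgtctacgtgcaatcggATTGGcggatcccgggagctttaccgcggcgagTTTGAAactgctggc
Top2a (chr11:99024190-99024309, minus strand): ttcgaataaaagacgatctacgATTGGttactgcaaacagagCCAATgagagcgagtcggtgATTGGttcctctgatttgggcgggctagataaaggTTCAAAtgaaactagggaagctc
Mki67 (chr7:135716380-135716499, minus strand): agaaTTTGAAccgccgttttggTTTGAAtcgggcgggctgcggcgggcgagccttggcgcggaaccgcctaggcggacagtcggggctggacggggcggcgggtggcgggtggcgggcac
Nusap1 (chr2:119618178-119618297, plus strand): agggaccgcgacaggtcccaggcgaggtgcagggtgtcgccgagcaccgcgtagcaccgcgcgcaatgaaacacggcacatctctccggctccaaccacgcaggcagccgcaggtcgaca
Hist1h1b (chr13:21780626-21780745, minus strand): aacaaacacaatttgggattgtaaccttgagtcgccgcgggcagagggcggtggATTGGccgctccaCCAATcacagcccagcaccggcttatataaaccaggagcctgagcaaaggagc
The stretches of 3 markers, Cdk1 and Top2a hold both kinds of letters. That of Mki67 holds TTTGAA without a CCAAT box. That of Nusap1, which had the highest ratio of the spindle list in the control, holds neither. That of Hist1h1b, the lowest gene of the control contrast, holds CCAAT boxes without the other element. These absences hold for the printed bases only. Further upstream, Mki67 has CCAAT letters at 188, 166 and 141 bases before the start, and Hist1h1b has TTTGAA at 230 bases before it.

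Over windows from 250 bases before to 50 bases after the start, TTTGAA or TTTAAA stood in 8 of 8 marker promoters and in 24 of 38 windows (63.2%) of the genes higher in all 3 libraries, of which 34 of 39 matched the table. The 4 mitotic lists had it in 60 of 94 windows (63.8%), and the replication list in 9 of 32 (28.1%). The share was 19.8% among windows of the genes tested and 27.6% among all 32851 windows. In the genes lower in all 3 libraries it was 7 of 11 (63.6%), mostly histone genes, so these letters did not separate the higher from the lower genes. CCAAT stood in 73.7% of windows of the higher genes, 90.9% of the lower genes, 65.6% of the replication list and 39.2% of the genes tested. A match of letters is not a binding site.

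Total RNA captured per cell did not show the mitotic contrast alike in the 3 libraries. The median mitotic control cell had 62981 UMIs (quartiles 52115.5 and 71748.5) and the median remaining cell 45718.5 (39335.5 and 52044.5), a ratio of 1.38. After 3 h the medians were 11302 (6914 and 17205) and 11806 (9385 and 14442.5), a ratio of 0.957. After 6 h they were 7175 (4898 and 9670) and 7837 (6102 and 9651), a ratio of 0.916. In both treated libraries the first quartile was lower in the mitotic set, and the mitotic cell with the fewest marker UMIs had 7 after 3 h and 4 after 6 h, against 32 in the control. When sets were chosen at 4000 UMIs the ratios were 1.34, 0.955 and 1.01. Among cells at or above their library's median UMIs they were 1.22, 1.22 and 1.12, so the direction in treated libraries depended on which cells were kept.

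Set against the control, the median mitotic cell had 5.57-fold fewer UMIs after 3 h and 8.78-fold fewer after 6 h, and the median remaining cell 3.87-fold and 5.83-fold fewer. Sequencing reads per library were not used here, so RNA content and depth cannot be told apart in these folds. Cells above 2 times their library's median UMIs, among which doublets would fall, made up 14, 11 and 15 of the mitotic cells (6.86%, 4.64% and 5.12%). Without such cells the spindle list's median was 0.81, 0.41 and 0.50 and that of the histones -1.71, -0.95 and -1.13.

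Across 10 equal steps of the marker share, genes that had no part in the sorting moved gradually. In the control, summed spindle genes went from 2066 CPM in the lowest step to 4654 CPM in the highest, with each step above the one before. After 3 h they went from 1780 to 3181 CPM and after 6 h from 2207 to 3709 CPM. Histone genes stayed between 3851 and 4215 CPM over the lowest 4 steps of the control and then were lower at each step down to 846 CPM. After 3 h they lay between 1042 and 1233 CPM over the lowest 8 steps and at 722 CPM in the highest. The median UMIs of a cell reached 1.49 times the lowest step's value in the highest step of the control. In the treated libraries they were highest in the middle of the range, at 1.21 and 1.28 times, and came to 1.07 times in the highest step.

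**Figure D4:**
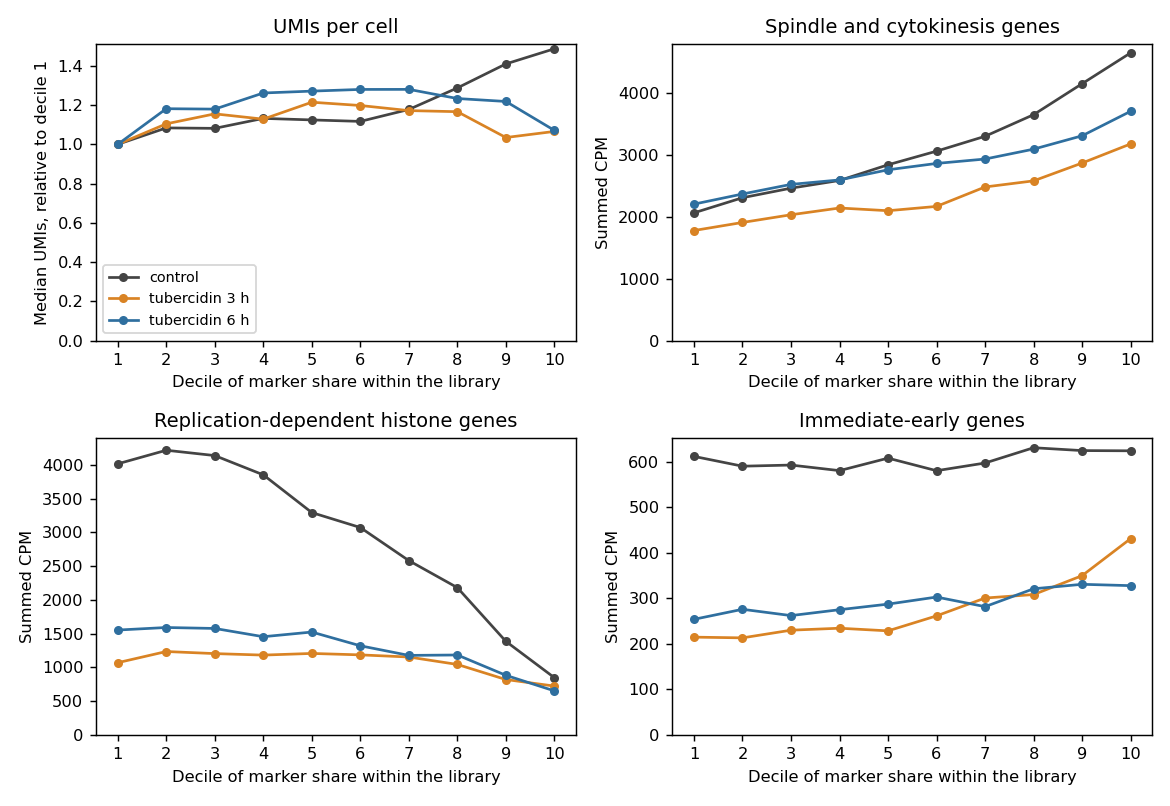
Median UMIs per cell relative to the lowest step, and summed CPM of spindle, replication-dependent histone and immediate-early genes (vertical axes), by step of the 8-marker share within each library (horizontal axis, 10 steps of equal cell number). Spindle genes end higher in each library, histone genes end lower, and immediate-early genes climb after 3 h from 215 to 431 CPM while the control stays between 581 and 631 CPM.

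The second comparison asked how mitotic cells differed after 3 h of tubercidin, beside the remaining cells of the same libraries. Most genes past 2-fold in either set were lower relative to the library total. In mitotic cells 47 genes (0.804%) were at least 2-fold higher than in mitotic control cells and 301 (5.15%) at least 2-fold lower. In remaining cells 43 (0.735%) were higher and 287 (4.91%) lower. 33 higher genes were past 2-fold in both sets (70.2% of the mitotic list and 76.7% of the other), as were 139 lower genes (46.2% and 48.4%), and none was past it in opposite directions. The median log2 ratio of all genes was -0.22 in mitotic and -0.25 in remaining cells. With median-of-ratios scaling the counts were 111 higher and 108 lower in mitotic cells and 106 and 103 in remaining cells, so whether more genes were lower than higher depended on the scaling. In UMIs per cell, where 7188 genes passed the filter on low genes, 7173 were lower in mitotic and 7132 in remaining cells, and 0 were higher.

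The genes furthest above the control were so in both sets. Mcmdc2, an MCM-domain protein known from meiosis, was at 1.77 CPM in mitotic and 1.49 CPM in remaining control cells, and at 38.7 and 26.6 CPM after 3 h. Cdk8, the kinase of the Mediator complex, was at 75.1 and 79.6 CPM in the control and 369 and 313 CPM after 3 h. Rab26os went from 6.00 and 7.28 CPM to 45.1 and 45.5 CPM. These 3 genes were taken from the highest of the mitotic cells, and their remaining cells were also above the control. Mcmdc2 was higher in mitotic than in remaining cells after 3 h, by a log2 ratio of 0.53 (0.23 to 0.85). Tapbpl, described at the end, was also among the genes furthest above the control. Its 3 h change was smaller in mitotic cells, with a difference of -1.02. Fbxo5, an inhibitor of the anaphase-promoting complex also known as Emi1, was at 139 and 127 CPM in the control and 43.8 and 25.3 CPM after 3 h.

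The third comparison asked the same after 6 h. In mitotic cells 104 genes (1.78%) were at least 2-fold higher and 190 (3.25%) lower, and in remaining cells 102 (1.74%) higher and 239 (4.09%) lower. Both sets shared 82 higher genes (78.8% of the mitotic list and 80.4% of the other) and 145 lower genes (76.3% and 60.7%), and none was past 2-fold in opposite directions. The median log2 ratio of all genes was -0.07 and -0.11. Median-of-ratios scaling gave 115 and 152 genes in mitotic cells and 127 and 180 in remaining cells. Mcmdc2 was at 58.9 and 40.2 CPM, Cdk8 at 551 and 407 CPM and Rab26os at 89.8 and 80.7 CPM. The p53 target Mdm2 was at 85.6 and 89.8 CPM in the control, 90.6 and 90.1 CPM after 3 h, and 250.4 and 252 CPM after 6 h. Both sets thus had a higher level after 6 h and not after 3 h. Of 15 tested p53 targets, 4 were at least 2-fold higher after 6 h in mitotic cells and 4 in remaining cells.

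The fourth comparison set the tubercidin change of mitotic cells against that of remaining cells. It is the same quantity as the difference between the mitotic contrasts of the treated library and the control. After 3 h the change was at least 1.5-fold higher in mitotic cells for 125 genes (2.14%) and at least 1.5-fold lower for 75 (1.28%). After 6 h these were 56 (0.958%) and 11 (0.188%). With median-of-ratios scaling they were 95 and 94 after 3 h, and 34 and 26 after 6 h. With sets chosen at 4000 UMIs they were 48 and 76 after 3 h and 23 and 21 after 6 h, so the excess of higher over lower genes was not kept. The 3 h and 6 h values share the control and are not independent.

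The median tubercidin change of the spindle list was lower in mitotic than in remaining cells, though few of its genes differed by 1.5-fold. After 3 h the median log2 ratio to the control was -0.55 in mitotic cells, with 0 genes at least 2-fold higher and 6 lower, and -0.26 in remaining cells, with 0 higher and 4 lower. After 6 h it was -0.31 in mitotic cells, with 1 higher and 2 lower, and -0.01 in remaining cells, with 2 higher and 1 lower. The median difference was -0.25 after 3 h and -0.35 after 6 h, against 0.02 and 0.03 for all genes. It was below 0 for 26 of 29 genes at each time, while 54.1% and 57.4% of all genes tested were above 0. The difference was at least 1.5-fold for 4 of 29 genes after 3 h and for 1 after 6 h, each time lower in mitotic cells. Among all genes tested, 1.28% and 0.188% were that far lower. It was -0.24 and -0.30 with sets chosen at 4000 UMIs, and -0.10 and -0.27 when both sorting and summing used 4000 UMIs per cell. It kept its sign under both other scalings. In UMIs per cell, however, the median difference of all genes was itself -0.38 and -0.45, so the sign there is not particular to this list. The direction of the change in remaining cells depended on the scaling, with 0.00 after 3 h and 0.07 after 6 h under median-of-ratios factors. The smaller contrast of markers read at the depth of the treated cells, given above, moves with these differences, and its part in them was not tested beyond the equal-depth values.

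Prc1 had differences of -0.59 (-0.76 to -0.43) after 3 h and -0.57 (-0.74 to -0.41) after 6 h. Nusap1 had -0.07 (-0.23 to 0.09) and -0.68 (-0.87 to -0.51), so it followed the list after 6 h alone. Kif18b had -1.04 (-1.42 to -0.72) after 3 h, from 42.7 to 30.6 CPM in mitotic cells and from 24.5 to 36.9 CPM in remaining cells. Kif20b went against the list after 3 h, with 0.39 (0.21 to 0.59). The kinetochore list had median differences of -0.06 and -0.17, the cyclin list -0.01 and -0.03, and the chromosome list 0.06 and -0.06.

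Within the cyclin list single genes departed from that. Ccnf, a cyclin-like ubiquitin ligase subunit, was at 171 and 73.4 CPM in the control, 121 and 79.5 CPM after 3 h, and 200 and 126 CPM after 6 h. Its differences were -0.62 (-0.81 to -0.44) and -0.56 (-0.73 to -0.39). Fzr1 had -0.28 after 3 h and -0.61 (-0.86 to -0.40) after 6 h. For both genes the remaining cells stood higher after 6 h than in the control, by log2 ratios of 0.78 and 0.98. Fbxo5 had the opposite sign after 3 h, 0.64 (0.36 to 0.96).

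Histone genes changed in both directions after tubercidin. Their median log2 ratio to the control after 3 h was -0.22 in mitotic cells, with 2 of 15 at least 2-fold higher and 3 lower, and -0.72 in remaining cells, with 1 higher and 6 lower. After 6 h it was -0.36 in mitotic cells, with 1 higher and 2 lower, and -1.03 in remaining cells, with 0 higher and 8 lower, while 5 of 15 were above 0 in each set. With median-of-ratios scaling the mitotic median after 3 h was 0.01. The change was higher in mitotic cells for 15 of 15 tested genes at each time, by a median of 0.78 and 0.53, with 9 and 7 genes past 1.5-fold. Among all genes tested, 54.1% and 57.4% were above 0, and 2.14% and 0.958% were at least 1.5-fold higher. With sets chosen at 4000 UMIs the medians were 0.34 and 0.49. The treated mitotic cells were sorted on medians of 27 and 15 marker UMIs, against 178.5 in the control. As for the spindle list, the part of that sorting depth in these differences was not tested beyond the equal-depth values. Hist1h1b had differences of 1.17 (0.93 to 1.38) and 1.18 (1.02 to 1.34), and Hist1h1a of 1.18 (0.83 to 1.54) and 0.81 (0.38 to 1.22).

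The wider replication list had a median difference of 0.19 at each time, with 31 of 37 genes above 0 after 3 h and 34 of 37 after 6 h (54.1% and 57.4% of all genes tested were above 0). Slbp had 0.64 (0.48 to 0.81) and 0.57 (0.37 to 0.77). In UMIs per cell the list's medians were -0.21 and -0.29, beside a wider difference in total UMIs between the sets. The limit of sorting depth given for the histone genes holds for this list too.

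**Figure D5:**
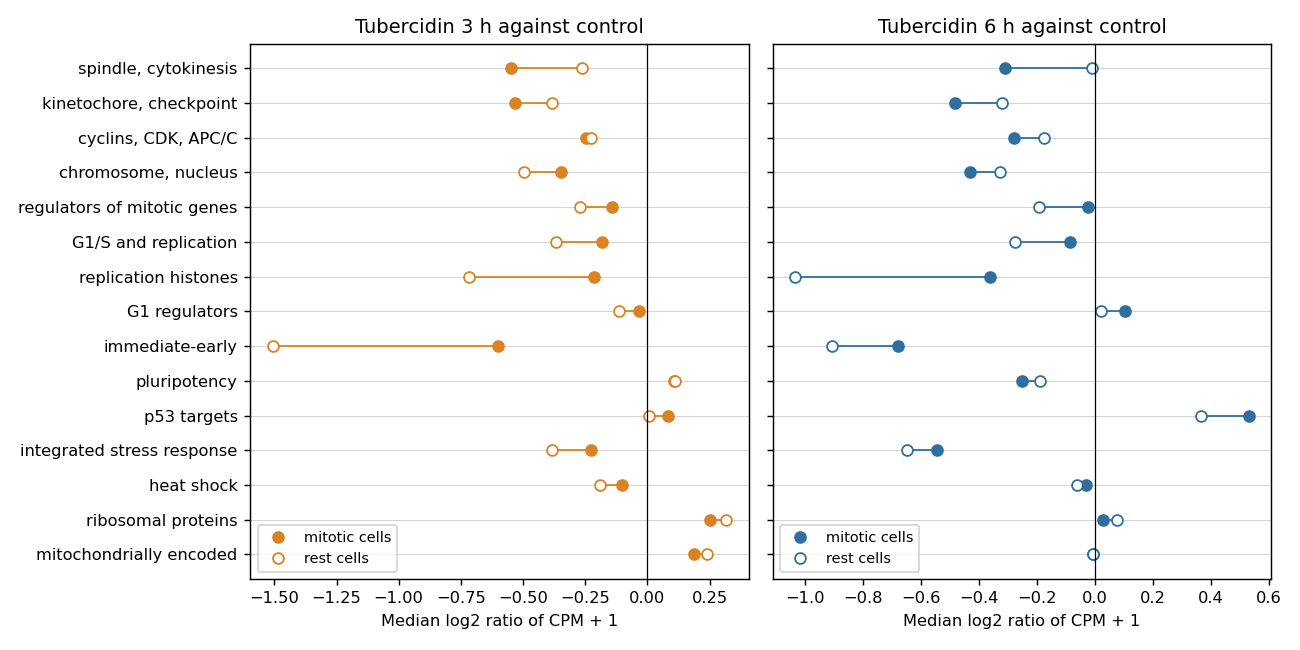
Median log2 ratio of tubercidin to control (horizontal axis) for each gene list (rows) in mitotic cells (filled points) and remaining cells (open points), after 3 h and after 6 h in separate panels. The spindle list's median is lower in mitotic cells at both times, and that of the histone list, with that of the immediate-early list after 3 h, is lower in remaining cells.

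Immediate-early genes separated the sets after 3 h. These genes answer signals within minutes and their messages are short-lived. Of 19 in the files 6 passed the filter. In the control their median log2 ratio of mitotic to remaining cells was 0.13 and none was past 1.5-fold. After 3 h it was 0.86 with 5 of 6 at least 1.5-fold higher, against 3.23% of all genes tested. After 6 h it was 0.23 with none past 1.5-fold. Summed over the 19 genes, mitotic and remaining cells held 626 and 597 CPM in the control, 431 and 225 CPM after 3 h, and 329 and 272 CPM after 6 h. The 3 h median was 0.62 with sets chosen at 4000 UMIs, 0.71 in cells at or above the median UMIs, and 0.83 with all cells at 4000 UMIs. It was 0.77 with median-of-ratios factors and 0.88 in UMIs per cell.

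Jund (ENSMUSG00000071076), a subunit of the AP-1 factor, was at 173 and 148 CPM in the control, 111 and 52.99 CPM after 3 h, and 109 and 82.4 CPM after 6 h. The difference of its 3 h change was 0.84 (0.65 to 1.05), with both sets below the control. Ier2 (ENSMUSG00000053560) was at 155 and 183 CPM, 104 and 62.2 CPM, and 41.9 and 35.5 CPM, a difference of 0.97 (0.78 to 1.18) after 3 h. Zfp36l1, which binds AU-rich messages and speeds their decay, was at 81.6 and 66.2 CPM, 21.2 and 10.5 CPM, and 38.0 and 32.2 CPM. The differences of the 6 h change were 0.17, 0.47 and -0.06 for Jund, Ier2 and Zfp36l1. Those of Jund and Ier2 were smaller than after 3 h, though that of Ier2 was the highest of the tested genes of the list.

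Some pluripotency genes followed the same course and others did not. Sox2 (ENSMUSG00000074637), a transcription factor of the pluripotency core, was at 176 and 213 CPM in the control, 116 and 70.5 CPM after 3 h, and 99.5 and 75.6 CPM after 6 h. Its mitotic cells were below the remaining cells in the control and above them in both treated libraries, and the differences were 0.99 (0.81 to 1.19) and 0.67 (0.45 to 0.89). Klf2 was at 259 and 210.1 CPM, 144 and 72.0 CPM, and 52.8 and 34.4 CPM, with a difference of 0.69 after 3 h. Tcf15, a transcription factor outside the list, had 1.00 (0.78 to 1.24) after 3 h and 0.00 after 6 h. Pou5f1 was at 139 and 139 CPM, 158 and 161 CPM, and 215 and 212 CPM, with no difference between the sets beyond counting error in any library. Nanog was higher in mitotic cells of each library, by 0.55, 0.52 and 0.48, so its contrast did not move with tubercidin. The 21 tested genes of the list had median differences of 0.09 and 0.04.

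A few genes had the reverse pattern after 3 h. Gfod2 was at 123 CPM in both sets of the control and at 91.3 CPM in mitotic and 171 CPM in remaining cells after 3 h. Slc25a13, a mitochondrial aspartate and glutamate carrier, was at 153 and 166 CPM in the control, 172 and 342 CPM after 3 h, and 436 and 502 CPM after 6 h. Its higher level was thus seen in remaining cells by 3 h and in both sets by 6 h. Gfod2 and Kntc1, whose 3 h values are given above, likewise stood closer between the sets after 6 h, at 161 and 182 CPM and at 119 and 134 CPM.

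No gene of 3 stress lists had a tubercidin change that differed by 1.5-fold or more between the sets at either time. Among all genes tested, 2.14% were that far higher in mitotic cells after 3 h and 1.28% lower. After 6 h these shares were 0.958% and 0.188%, so their absence among so few stress genes is near the share of all genes. Median differences were 0.10 and 0.05 for the integrated stress response, 0.08 and 0.03 for heat shock, and 0.02 and 0.07 for p53 targets. Atf4, the central factor of the integrated stress response, was at 178 and 179 CPM in the control, 90.2 and 76.5 CPM after 3 h, and 63.7 and 63.2 CPM after 6 h. Ribosomal protein genes had median differences of -0.11 and -0.07, with 72 and 75 of 80 below 0, and none past 1.5-fold. Among all genes tested, 54.1% and 57.4% were above 0. Mitochondrially encoded genes had -0.04 and -0.01.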

How the data were processed

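Counts of UMIs per gene and barcode were deposited by the authors for 1 library each of control, 3 h and 6 h; per the file headers the software was Cell Ranger 7.1.0, and the genome was mm10 per the submitters' processing notes. The annotation release and whether intronic reads were counted are not given in the sources used here. The matrices were raw, with 32285 genes. Cells were barcodes with at least 11033, 2961 and 2107 UMIs, each the 99th percentile over the top 3000 barcodes divided by 10. They also had 500 genes or more and a mitochondrial share of 20% or less. No doublet caller was run, and cells of very high UMIs were kept and left out as an alternative.

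The members, gene lists and tests were chosen with earlier results of these data known. Summed CPM, log2 ratios with a pseudocount of 1 CPM, and exact conditional binomial counting intervals of the ratio without the pseudocount were computed in Python 3.11.15 with numpy 2.4.6, scipy 1.17.1 and pandas 2.3.3. Intervals of the difference between 2 changes used normal errors of log counts. No test or p-value is given, since cells of 1 library are not replicates, and UMIs per cell mix RNA content with depth. Genes whose CPM averaged 20 or more over the 6 sets were compared by size, at 1.5-fold between sets and 2-fold for tubercidin. Thinning drew 4000 UMIs per cell without replacement. The scripts were tested on simulated data.

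Genes named were drawn from the 10 highest and 10 lowest by median ratio among those past 1.5-fold in all 3 libraries. They were also drawn from the 5 highest and 5 lowest of each tubercidin change and of each difference, and from the highest and lowest of each list. Not all of these are given in the text. Other list members were named as examples chosen after their values were seen. Names of predicted genes were left out of each of these. Arhgap11a, Arhgap19, Knstrn, Nde1, Tuba1c and Malat1 were named after their values were seen. Promoter windows came from RefSeq, where Cdc25c, Cdca2, Hist1h2ap, Incenp, Smc4 and Tpx2 had no entry.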

Additional observations from a re-analysis of the deposited data

Results flagged for a closer look

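The ratio of captured RNA between mitotic and remaining cells was above 1 in the control and slightly below 1 in the treated libraries. The median UMIs of a mitotic cell were 1.38 times those of a remaining cell in the control, 0.957 times after 3 h and 0.916 times after 6 h. The difference between libraries was not tested, since each condition has 1 library, and the treated values do not show a difference between the sets. With sets chosen at 4000 UMIs the ratio after 6 h was 1.01, and the ratios were above 1 in all 3 libraries when cells below the library's median UMIs were left out. Kntc1, a kinetochore gene, had a log2 ratio of mitotic to remaining cells of 0.11 in the control and -0.62 after 3 h, where the mitotic set had the lower value. Purb, which encodes a single-strand nucleic acid binding protein, had -0.13 in the control and 0.62 after 6 h, with 80.5 and 88.2 CPM in the control and 84.6 and 54.6 CPM after 6 h. Neither of these 2 reversals was tested.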

How the results depend on the processing

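For the spindle, histone and immediate-early lists, the directions given next held more firmly than counts of genes. Some other medians crossed 0 over the same settings. The change of spindle genes in remaining cells after 6 h ran from -0.12 to 0.07. That of pluripotency genes in mitotic cells after 3 h ran from -0.12 to 0.34. Under 18 settings, leaving out unscaled UMIs per cell, the median log2 ratio of spindle genes between mitotic and remaining cells stayed between 0.54 and 0.89 in the control, 0.29 and 0.55 after 3 h, and 0.34 and 0.58 after 6 h. That of histone genes stayed between -2.02 and -1.18, -1.09 and -0.79, and -1.42 and -0.73. The median difference of the tubercidin change stayed between -0.34 and -0.10 after 3 h and between -0.40 and -0.15 after 6 h for spindle genes, and was positive throughout for histone genes. That of immediate-early genes after 3 h stayed between 0.48 and 0.81. No paired analysis was possible because each condition has 1 library. Depth limits the treated sets most, since a mitotic cell after 6 h was chosen on a median of 15 marker UMIs. Of the recomputed values of the main results, 229 stayed within 1.5 times or their error and 131 did not; the causes were not tested, except that a filter on the mean changes how many genes are counted. Those values follow as counts of genes past the bounds of the report. With at most 10% mitochondrial UMIs, the difference of changes had 117 lower after 3 h, 18 lower after 6 h. Without cells above 2 times the median UMIs, the difference of changes had 27 lower after 6 h. With the top 5% as mitotic cells, the mitotic contrast had 29 lower in the control, 297 higher after 3 h, 245 higher and 68 lower after 6 h. Changes differed between sets for 215 higher and 135 lower after 3 h, 137 higher and 86 lower after 6 h. With every cell below the top 10% as remaining cells, the mitotic contrast had 43 higher in the control, 81 higher and 33 lower after 3 h, 44 higher after 6 h. The changes differed for 55 higher and 43 lower after 3 h, 26 higher and 3 lower after 6 h. With equal weight for each marker, the mitotic contrast had 28 lower after 3 h. Differences of changes numbered 39 lower after 3 h, 18 lower after 6 h. With sets chosen by Ccnb1, Plk1, Cenpe and Ube2c, the mitotic contrast had 107 higher after 3 h, 60 higher and 14 lower after 6 h. As differences of changes there were 71 higher after 3 h. With sets chosen by Cdc20, Aurka, Cenpf and Hmmr, the mitotic contrast had 27 lower after 3 h. Changes differed between sets for 21 lower after 6 h. The UMI ratio of mitotic to remaining cells was then 0.839 after 3 h. With all cells thinned to 4000 UMIs, the mitotic contrast had 172 higher and 135 lower in the control, 140 lower after 3 h, 74 lower after 6 h. Tubercidin changes past 2-fold were 89 higher in mitotic cells after 3 h, 339 lower in mitotic cells after 6 h. The changes differed for 442 higher and 274 lower after 3 h, 327 higher and 248 lower after 6 h. The UMI ratio of mitotic to remaining cells was then 1.01 after 6 h. The log2 values that changed sign were Ehbp1 0.0196 (difference after 3 h). With equal weight for each cell, the mitotic contrast had 287 higher and 35 lower after 3 h, 213 higher after 6 h. Between conditions there were 159 lower in mitotic cells after 3 h. Differences of changes numbered 37 lower after 3 h, 132 higher and 23 lower after 6 h. With median-of-ratios scaling, the mitotic contrast had 111 higher and 86 lower after 3 h, 59 higher and 44 lower after 6 h. Past 2-fold were 111 higher and 108 lower in mitotic cells after 3 h, 106 higher and 103 lower in remaining cells after 3 h. As differences of changes there were 34 higher and 26 lower after 6 h. In UMIs per cell without scaling, the mitotic contrast had 1619 higher in the control, 332 higher after 3 h, 41 lower after 6 h. Tubercidin changes past 2-fold were 0 higher and 7173 lower in mitotic cells after 3 h, 0 higher and 7132 lower in remaining cells after 3 h, 0 higher and 7182 lower in mitotic cells after 6 h, 0 higher and 7164 lower in remaining cells after 6 h. Changes differed between sets for 19 higher and 1469 lower after 3 h, 3 higher and 1621 lower after 6 h. The log2 values that changed sign were Cdk8 -0.0488 (3 h, mitotic cells), Lars2 -0.41 (3 h, mitotic cells), Lars2 -0.86 (3 h, remaining cells), Apaf1 -0.82 (6 h, mitotic cells), Lpin1 -0.76 (6 h, mitotic cells), Cdk8 -0.15 (6 h, mitotic cells), Apaf1 -0.73 (6 h, remaining cells), Lpin1 -0.24 (6 h, remaining cells), Cdk8 -0.19 (6 h, remaining cells). After 10% free RNA was subtracted, the mitotic contrast had 181 higher and 35 lower after 6 h. The changes differed for 124 lower after 3 h, 87 higher and 34 lower after 6 h. With a mean of at least 50 CPM, the mitotic contrast had 53 higher and 9 lower in the control, 94 higher and 13 lower after 3 h, 39 higher and 9 lower after 6 h. Between conditions there were 27 higher and 82 lower in mitotic cells after 3 h, 24 higher and 116 lower in remaining cells after 3 h, 44 higher and 64 lower in mitotic cells after 6 h, 43 higher and 90 lower in remaining cells after 6 h. Differences of changes numbered 63 higher and 12 lower after 3 h, 12 higher and 2 lower after 6 h. With a mean of at least 10 CPM, the mitotic contrast had 170 higher and 38 lower in the control, 334 higher and 117 lower after 3 h, 267 higher and 55 lower after 6 h. Past 2-fold were 89 higher and 530 lower in mitotic cells after 3 h, 69 higher and 469 lower in remaining cells after 3 h, 197 higher and 352 lower in mitotic cells after 6 h, 190 higher and 398 lower in remaining cells after 6 h. As differences of changes there were 232 higher and 189 lower after 3 h, 154 higher and 76 lower after 6 h. With sets chosen on thinned cells and all UMIs summed, the mitotic contrast had 66 higher in the control, 94 higher after 3 h, 33 higher after 6 h. Changes differed between sets for 48 higher after 3 h, 23 higher and 21 lower after 6 h. The UMI ratio of mitotic to remaining cells was then 1.01 after 6 h. With only cells at or above the median UMIs, the mitotic contrast had 163 lower after 3 h, 35 lower after 6 h. Tubercidin changes past 2-fold were 624 lower in mitotic cells after 3 h. The changes differed for 307 lower after 3 h, 49 lower after 6 h. The UMI ratio of mitotic to remaining cells was then 1.22 in the control, 1.22 after 3 h, 1.12 after 6 h. With a minimum of 12 marker UMIs of 4000 in place of 11, the share of cells was 8.52% in the control, 2.32% after 3 h and 1.29% after 6 h. The alternatives chosen after seeing the data were the sets chosen on thinned cells, the cells at or above the median UMIs and that higher minimum.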

Other observations

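Among genes of no mitotic list, a few others were higher in mitotic cells of each library. Rhox5, an X-linked homeobox gene expressed early in development, was at 29.5 CPM in mitotic and 16.8 CPM in remaining control cells, 40.1 and 23.1 CPM after 3 h, and 55.8 and 25.4 CPM after 6 h. Hspa8, the constitutive Hsc70 chaperone, was at 2000 and 1532 CPM, 1906 and 1469 CPM, and 1516 and 1222 CPM, a log2 ratio of 0.38, 0.38 and 0.31. Dnajb1, a co-chaperone of Hsp70 proteins, had 0.36, 0.41 and 0.25. Neither reached 1.5-fold, nor did another of the 11 tested heat shock genes, and the list's medians were -0.01, 0.17 and -0.04. Tuba1c, an alpha-tubulin gene, was at 261 and 132 CPM, 345 and 173 CPM, and 347 and 222 CPM. The contrast varied more between libraries for the G1 control genes Cdkn1b and Ccnd1. Cdkn1b, which encodes the inhibitor p27, was at 45.2 and 30.5 CPM, 17.2 and 9.42 CPM, and 9.16 and 8.74 CPM. Ccnd1, which encodes cyclin D1, was at 62.7 and 46.0 CPM, 134 and 70.2 CPM, and 88.5 and 73.8 CPM.

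Tapbpl, related to the peptide-loading protein tapasin, was among the genes furthest above the control after 3 h and differed between the sets. It was at 6.00 and 4.18 CPM in the control, 38.4 and 58.2 CPM after 3 h, and 14.0 and 21.8 CPM after 6 h, the remaining cells being higher in both treated libraries.

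No ribosomal protein gene was 1.5-fold apart between the sets in any library. Among all genes tested, 5.03% were that far higher in at least 1 library and 1.15% lower. Of 80 tested, 41 were below 0 in all 3 libraries (51.2%, against 18.5% of genes tested), with medians of -0.01, -0.12 and -0.07. In the control 34 of the 80 were above 0, and over 18 scaled settings the median there ran from -0.07 to 0.02, so it had no steady direction. It was 0.43 in UMIs per cell.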
